A study of Mus musculus with 6 samples.

Results

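The rod-derived cone viability factor axis was described here through 4 genes, Nxnl1, Nxnl2, Bsg and Slc2a1, out of the 13072 protein-coding genes of the deposited gene table, together with the 10 transcripts of these genes among the 26721 of the deposited transcript table. The members were picked by gene name, with the difference between the genotypes already known, and Nxnl1 is an entry of the authors' deposited list of higher genes. The levels of the 4 genes are therefore given as a description, without a test. All 6 libraries came from dissected retinas of C57BL/6 mice at postnatal day 7. The CTGF-/- group (3 libraries) carried, per its label, a deficiency of Ctgf from an inducible Cre/lox system; this gene encodes connective tissue growth factor, which acts in the extracellular matrix. The WT group (3 libraries) was labelled wild type. The labels name neither the Cre driver nor the inducing agent, and do not say whether WT mice carried Cre or floxed alleles. They also do not say whether a library held 1 animal or several, so errors measure the spread between libraries, which may be partly technical.

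Rod photoreceptors make a truncated thioredoxin-like protein from Nxnl1, the rod-derived cone viability factor, which is secreted and helps cones survive. It binds basigin-1, the photoreceptor form of the immunoglobulin protein encoded by Bsg, which sits in a complex with the glucose transporter GLUT1, the product of Slc2a1, and this raises glucose entry and aerobic glycolysis in cones. The full-length Nxnl1 product is a thioredoxin-related enzyme that stays in the cell and counters oxidation, and Nxnl2 encodes a related pair of products.

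Values are FPKM, fragment numbers scaled to feature length and library size, which the authors deposited for each gene, transcript and library. The tables hold no read counts, so sequencing depth is unknown and no counting interval can be given. Gene FPKM summed to 217674 to 230474 in CTGF-/- libraries and 208436 to 216436 in WT libraries. CTGF-/- replicate 2 had 1875 transcripts listed at 0, against 716 to 861 in each of the other libraries. Ctgf itself had 0.587, 1.0 and 0.526 FPKM in CTGF-/- replicates 1 to 3, against 0.932, 0.777 and 1.51 FPKM in WT replicates 1 to 3. These ranges overlapped, and as the deleted part of Ctgf is not given in the labels, its level does not check the genotype. As a weak check of retinal identity, 20 of 20 rod markers were in the table and none was listed at 0. This does not exclude other tissue in a library, and lens markers, described further on, varied widely.

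The sequences that separate the forms of these proteins are shown because the deposited transcripts resolve some of these forms and not others. In Bsg (chromosome 10, 79704491 to 79711969, plus strand, GRCm38), transcript Bsg-201 has 8 exons and 389 coding codons in the GENCODE M21 annotation, and Bsg-205 has 7 exons and 273 codons. Bsg-201 carries an extra coding exon of 348 bases, or 116 codons, after exon 1, which corresponds to basigin-1 with its additional immunoglobulin domain, while Bsg-205 corresponds to the widely expressed basigin-2. Capitals mark bases of the extra exon, and lower case marks the exons that both transcripts share.
Bsg-201 start of the extra exon: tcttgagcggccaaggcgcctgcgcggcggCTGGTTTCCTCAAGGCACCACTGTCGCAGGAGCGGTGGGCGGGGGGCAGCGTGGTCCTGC
Bsg-201 end of the extra exon: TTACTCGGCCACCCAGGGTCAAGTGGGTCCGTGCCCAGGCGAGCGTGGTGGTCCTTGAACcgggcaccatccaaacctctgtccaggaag
Bsg-205 without it: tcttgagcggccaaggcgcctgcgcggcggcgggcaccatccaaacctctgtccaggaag
The 2 Bsg forms can thus be told apart by reads across these junctions, and each has its own row in the transcript table.

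In Nxnl1 (chromosome 8, 71560555 to 71566601, minus strand) and Nxnl2 (chromosome 13, 51171022 to 51175188, plus strand), the truncated products are known to arise from messages that keep the intron after exon 1. Capitals mark exon 2 in the spliced transcripts, and lower case marks exon 1 or, in Nxnl2-202, exon 1 followed by the kept intron.
Nxnl1-202: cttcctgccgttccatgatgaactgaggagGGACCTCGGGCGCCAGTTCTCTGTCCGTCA
Nxnl2-201: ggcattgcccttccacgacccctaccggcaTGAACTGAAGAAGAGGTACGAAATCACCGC
Nxnl2-202: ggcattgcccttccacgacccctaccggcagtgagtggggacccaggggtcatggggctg
Exon 1 of Nxnl1 holds 108 complete codons of the 217 of the full-length frame. Both listed Nxnl1 transcripts splice this intron out and have the same coding sequence. They differ in the 3′ untranslated part, from which Nxnl1-201 removes 444 bases as a further intron. No M21 transcript of Nxnl1 keeps the first intron, so the tables hold no separate value for the secreted form. For Nxnl2, read from the start codon of Nxnl2-201 (156 codons), the intron-keeping Nxnl2-202 runs for 101 codons to a stop in frame. The longest stretch shared by Nxnl1-202 and Nxnl2-201 was 11 bases, so the paralogs do not share sequence over the length of a read.

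**Figure D1:**
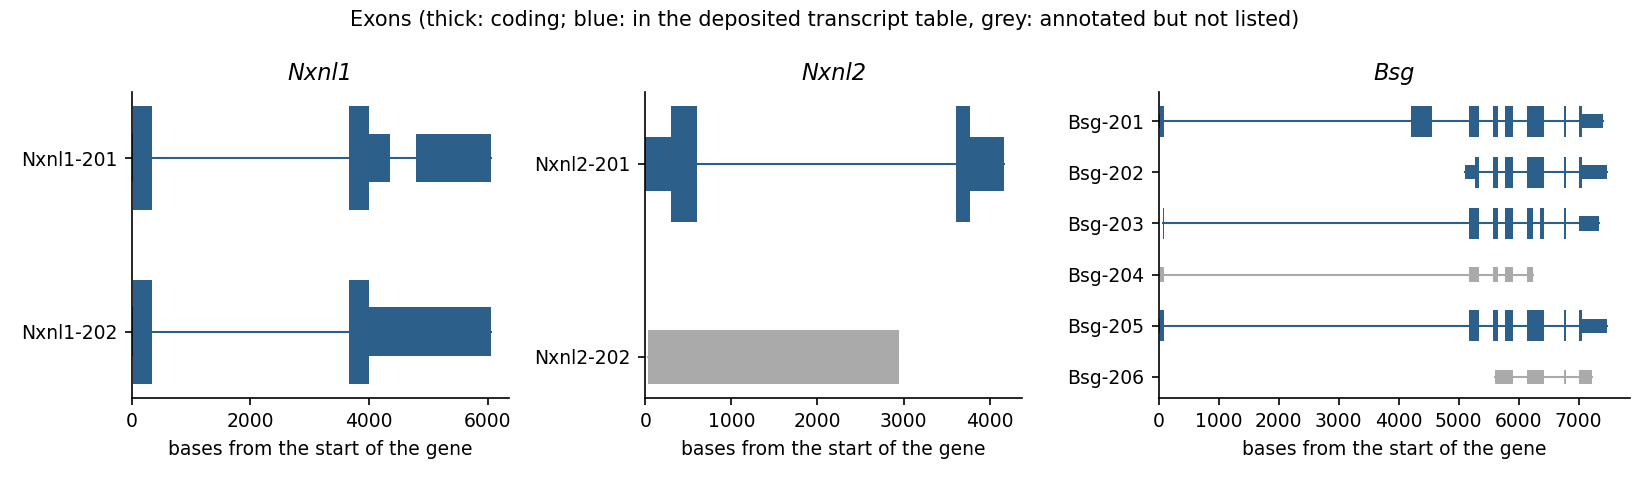
Exons of the annotated transcripts of Nxnl1, Nxnl2 and Bsg, with position in bases from the start of each gene; thick blocks are coding, blue transcripts are in the deposited table and grey ones are not. Bsg-201 alone holds the 348-base exon, both Nxnl1 transcripts splice out the first intron, and Nxnl2-202 keeps it.

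Nxnl1 was the member with the largest difference between the genotypes. Its level was 42.9, 45.9 and 36.6 FPKM in CTGF-/- replicates 1 to 3, against 30.8, 22.2 and 26.3 FPKM in WT replicates 1 to 3. Every CTGF-/- library lay above every WT library, and the lowest CTGF-/- value, in replicate 3, exceeded the highest WT value, in replicate 1. The means were 41.8 ± 4.73 FPKM in CTGF-/- and 26.4 ± 4.29 FPKM in WT (SD, n = 3 each), a ratio of means of 1.58. On the log2(FPKM + 1) scale, which is used for all differences and understates those of weakly expressed genes, the difference was 0.65 (SE 0.14), CTGF-/- minus WT. It was 0.53 to 0.76 when any 1 library was left out and 0.57 when the libraries were scaled to equal FPKM totals.

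Nxnl2 was at 27.4, 23.0 and 22.3 FPKM in CTGF-/- replicates 1 to 3, against 21.0, 17.9 and 25.8 FPKM in WT replicates 1 to 3. The groups overlapped, with WT replicate 3 above 2 of the CTGF-/- libraries. The means were 24.3 ± 2.77 FPKM in CTGF-/- and 21.6 ± 4.0 FPKM in WT (SD, n = 3 each), a log2 difference of 0.17 (SE 0.14). It came to 0.05 when WT replicate 2 was left out and to 0.30 when WT replicate 3 was left out.

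Bsg, the receptor of the factor, was the most abundant member. Its level was 122, 177 and 123 FPKM in CTGF-/- replicates 1 to 3, against 111, 121 and 123 FPKM in WT replicates 1 to 3. CTGF-/- replicate 2 stood alone, and the other 5 libraries lay within 111 to 123 FPKM. The means were 141 ± 31.6 FPKM in CTGF-/- and 118 ± 6.47 FPKM in WT (SD, n = 3 each). The log2 difference of 0.23 (SE 0.15) was 0.05 without CTGF-/- replicate 2, the library with the most transcripts listed at 0.

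Slc2a1 (chromosome 4, 119108711 to 119137983, plus strand) was at 63.8, 68.9 and 52.3 FPKM in CTGF-/- replicates 1 to 3, against 55.4, 56.3 and 52.2 FPKM in WT replicates 1 to 3. The groups overlapped, as CTGF-/- replicate 3 lay at the level of the lowest WT library. The means were 61.7 ± 8.54 FPKM in CTGF-/- and 54.6 ± 2.14 FPKM in WT (SD, n = 3 each), a log2 difference of 0.16 (SE 0.11). It was 0.08 without CTGF-/- replicate 2 and 0.28 without CTGF-/- replicate 3. In M21 Slc2a1 overlaps Mir1957a on its own strand and Gm12867 and Gm12868 on the other, and the labels do not say whether strand was used in quantification, so reads of these genes may enter its value. The other 3 members overlap no annotated gene.

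**Figure D2:**
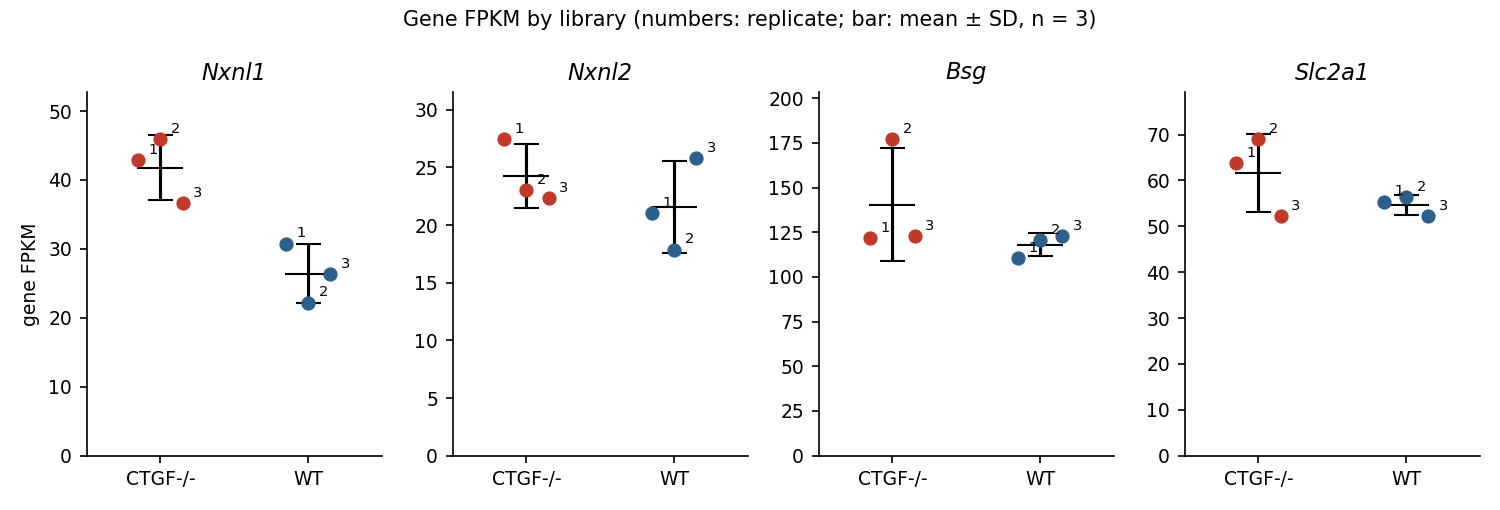
Gene FPKM of Nxnl1, Nxnl2, Bsg and Slc2a1 in each library, with numbered points for the replicates and bars for mean ± SD (n = 3 per group). The CTGF-/- points of Nxnl1 (36.6 to 45.9 FPKM) lie above the WT points (22.2 to 30.8 FPKM), and the other 3 genes overlap between the groups.

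The order of the members' levels depends on the feature to which the FPKM refer. Gene FPKM are scaled to the joined exons, which for Nxnl2 span 3505 bases because Nxnl2-202 is included, against 1167 bases of the spliced Nxnl2-201. Nxnl2 therefore lay below Nxnl1 by gene FPKM in each library and above it by the main transcript. Nxnl2-201 was at 73.9, 61.5 and 60.9 FPKM in CTGF-/- replicates 1 to 3, against 55.9, 47.8 and 71.1 FPKM in WT replicates 1 to 3, with overlap. These values were above those of Nxnl1-202, given below, in each library, and the order of the 2 genes by gene FPKM is not a comparison of their messages.

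The groups did not overlap, with CTGF-/- higher, for 1 of the 4 members, Nxnl1, where this held for 7.53% of all 12915 genes whose mean over the libraries reached 0.5 FPKM (10.9% were apart with CTGF-/- lower, 18.5% in all). The difference was above 0 for 4 of 4 members, where it was above 0 for 44.8% of all these genes. Because the members were chosen with this contrast in view, nothing is read from these counts. The gene lists described further on were read from a limma fit over all 12915 genes, in which the Benjamini-Hochberg adjusted p was under 0.05 for 0.0465% of genes and the unadjusted p for 9.32% (3.83% with CTGF-/- higher and 5.49% with CTGF-/- lower). The authors' deposited table gives Nxnl1 a fold change of 1.57 and a q-value of 0.624. The authors' deposited list of 16 higher genes runs down to a fold change of 1.51 and up to a p-value of 0.048, and also names Cnga1. The authors' deposited transcript lists hold Nxnl1-202 and transcripts of Ldha and Cryba4 among 194 higher entries, and transcripts of Aldoc and Thrb among 263 lower entries.

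The Nxnl1 signal lay almost wholly in 1 transcript. Nxnl1-202 was at 41.9, 45.9 and 35.8 FPKM in CTGF-/- replicates 1 to 3, against 29.9, 22.2 and 26.3 FPKM in WT replicates 1 to 3, and again the groups did not overlap. It was the only one of the 10 member transcripts with CTGF-/- libraries entirely above WT libraries, where 5.9% of all 25082 transcripts tested were so (0.0239% of these had an adjusted p under 0.05 by limma). It made up 97.3% and 97.4% of the summed Nxnl1 transcript FPKM in CTGF-/- replicates 1 and 3, 96.7% in WT replicate 1, and all of it in the other 3 libraries. Nxnl1-201 was listed at 1.16, 0 and 0.971 FPKM in CTGF-/- and at 1.03, 0 and 0 FPKM in WT. The form with the spliced 3′ part was thus near the floor of the table in each library where it was listed above 0.

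Bsg transcripts carried the CTGF-/- replicate 2 excess in the basigin-1 form. Bsg-201 was at 62.5, 133 and 63.4 FPKM in CTGF-/- replicates 1 to 3, against 47.9, 59.7 and 64.8 FPKM in WT replicates 1 to 3. Apart from CTGF-/- replicate 2 the values of the groups were interleaved. Bsg-205, the basigin-2 form, was at 68.0, 71.5 and 77.9 FPKM in CTGF-/-, against 66.5, 65.1 and 74.8 FPKM in WT, with overlap and no library apart. The extra exon shown above was therefore in a share of the listed Bsg transcripts that was 38.3%, 58.5% and 38.2% in CTGF-/- replicates 1 to 3, against 31.8%, 37.0% and 39.3% in WT replicates 1 to 3. The mean shares were 45.0% ± 11.7 in CTGF-/- and 36.0% ± 3.83 in WT (SD, n = 3 each), a difference of 8.96 percentage points that was 2.21 without CTGF-/- replicate 2.

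The remaining Bsg forms were less abundant and more variable. Bsg-202, which starts further downstream and codes for 218 codons, was at 24.2, 18.9 and 13.7 FPKM in CTGF-/-, against 29.5, 34.9 and 15.7 FPKM in WT. Bsg-203, a 196-codon form, was at 8.34, 3.9 and 11.2 FPKM in CTGF-/-, against 6.54, 1.57 and 9.74 FPKM in WT. Both forms overlapped between the groups.

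**Figure D3:**
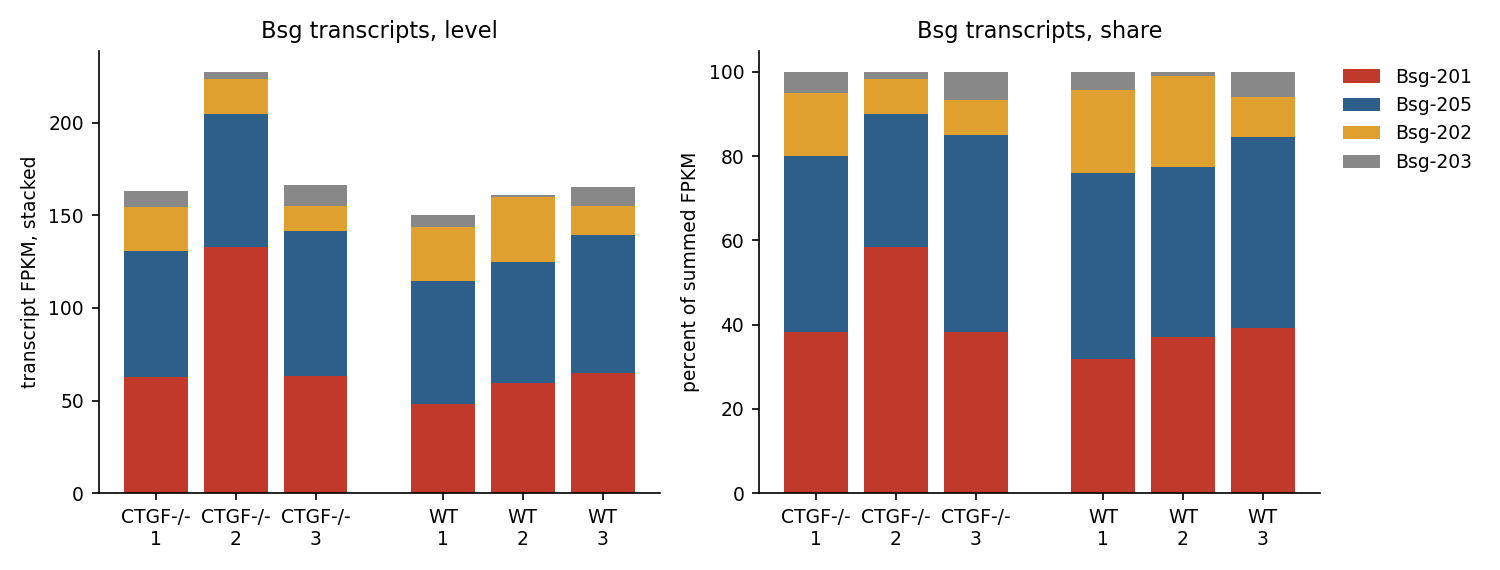
FPKM of the 4 listed Bsg transcripts stacked per library (left) and their percent of the summed FPKM (right), with CTGF-/- replicates 1 to 3 left of WT replicates 1 to 3. CTGF-/- replicate 2 stands out through Bsg-201, at 133 FPKM and 58.5% of the sum.

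Slc2a1 was mostly 1 full-length transcript. Slc2a1-201, with 10 exons and 492 codons, was at 57.8, 68.2 and 48.1 FPKM in CTGF-/- replicates 1 to 3, against 48.0, 49.2 and 49.5 FPKM in WT replicates 1 to 3. WT libraries were close together and CTGF-/- libraries lay on both sides of them. Slc2a1-202 was at 2.0 to 3.09 FPKM in CTGF-/- and 2.35 to 4.07 FPKM in WT, and Slc2a1-205 at 0.543 to 0.843 FPKM in CTGF-/- and 0.392 to 0.63 FPKM in WT, so both overlapped.

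Gene FPKM also include transcripts that the transcript table does not list. In 506 of 507 genes with several M21 transcripts that were all listed, the gene value equalled the length-weighted sum of transcript FPKM over the joined exons, to within 0.1% in every library. By this sum the listed transcripts gave all of Nxnl1 in each library and 99.2% to 99.8% of Bsg. They gave 85.3% to 92.7% of Slc2a1 in CTGF-/- and 81.5% to 89.7% in WT. For Nxnl2 they gave 89.0% to 90.9% in CTGF-/- and 88.6% to 91.8% in WT. If the rest of Nxnl2 is assigned to Nxnl2-202, the only other annotated transcript, its level was 3.41, 3.06 and 2.46 FPKM in CTGF-/- replicates 1 to 3, against 2.9, 2.35 and 2.57 FPKM in WT replicates 1 to 3. These ranges overlapped and lay far below Nxnl2-201, at 60.9 to 73.9 FPKM in CTGF-/- and 47.8 to 71.1 FPKM in WT. Reads from unspliced precursor RNA would count in the same way, and their part was not tested.

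Promoters are shown for Nxnl1 and Nxnl2, whose home is the photoreceptor, because Otx2, a homeodomain factor of photoreceptors, was higher in each CTGF-/- library, as described next. The sequences span 250 bases before to 50 bases after the RefSeq start (GRCm38.p6) and are written 5′ to 3′ on the strand of the gene. TAATCC and TAATCT, the core letters that OTX2 and CRX are known to bind, were searched on both strands and are in capitals, as GGATTA where TAATCC lies on the other strand.
Nxnl1, chr8:71566600-71566899, minus strand: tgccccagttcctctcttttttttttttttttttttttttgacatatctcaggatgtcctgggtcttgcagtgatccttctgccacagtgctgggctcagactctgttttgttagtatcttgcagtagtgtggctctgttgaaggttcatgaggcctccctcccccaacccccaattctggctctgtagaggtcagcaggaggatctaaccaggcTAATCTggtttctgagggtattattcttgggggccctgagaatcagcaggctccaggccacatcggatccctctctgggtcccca
Nxnl2, chr13:51170775-51171074, plus strand: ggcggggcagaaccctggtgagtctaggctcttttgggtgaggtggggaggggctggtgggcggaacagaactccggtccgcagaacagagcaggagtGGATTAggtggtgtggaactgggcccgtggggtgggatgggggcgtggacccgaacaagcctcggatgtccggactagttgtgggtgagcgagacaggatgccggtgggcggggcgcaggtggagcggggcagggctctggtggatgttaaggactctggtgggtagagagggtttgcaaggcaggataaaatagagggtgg
Nxnl1 held 1 TAATCT and Nxnl2 held 1 TAATCC, while the Slc2a1 window held neither. Among 32851 RefSeq promoter windows of this length, 7.06% held TAATCC, 8.19% held TAATCT and 14.4% held at least 1 of them, so a match is common and is no more than a description. Binding of OTX2 or CRX at these sites, and any effect of Otx2 on either gene, was not tested.

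Among transcription factors of photoreceptors and of the Nxnl1 promoter, 5 of 12 did not overlap between the groups with CTGF-/- higher, and 0 with CTGF-/- lower. Over all genes tested, 7.53% were apart with CTGF-/- higher and 10.9% with CTGF-/- lower. Every CTGF-/- library had a larger FPKM total than every WT library, and overlap was not counted again with equal totals. Of the 12 genes 8 were higher and 4 lower in CTGF-/-, with a median log2 difference of 0.06 against -0.02 for all genes tested, and this median was -0.03 with libraries scaled to equal FPKM totals and 0.008 without CTGF-/- replicate 1, with 6 higher and 6 lower. None of the 12 passed the adjusted threshold, and 3 were higher at an unadjusted p under 0.05 by limma, against 3.83% of all genes tested. With equal FPKM totals 5 were higher and 7 lower, and 1 had an unadjusted p under 0.05. Otx2 was at 193, 190 and 179 FPKM in CTGF-/- replicates 1 to 3, against 134, 142 and 137 FPKM in WT replicates 1 to 3, with no overlap and an adjusted p of 0.533 by limma. Mef2d, a factor that works with CRX at photoreceptor genes, averaged 66.6 ± 9.12 FPKM in CTGF-/- and 54.0 ± 1.78 FPKM in WT (SD, n = 3 each). Rxrg, a nuclear receptor of cones, was at 12.7, 17.3 and 12.2 FPKM in CTGF-/-, against 11.5, 11.3 and 7.91 FPKM in WT. Neurod1, the most abundant of the list, averaged 328 ± 40.6 FPKM in CTGF-/- and 321 ± 78.9 FPKM in WT. The next 3 genes were named after their values were seen. Nrl, the factor that sets rod identity, was at 122, 182 and 106 FPKM in CTGF-/-, against 102, 85.6 and 104 FPKM in WT, and Nr2e3, its partner in rods, at 265 to 273 FPKM in CTGF-/- and 210.5 to 260.4 FPKM in WT, both without overlap. Crx, a known regulator of the Nxnl1 promoter, was at 229 to 275 FPKM in CTGF-/- and 229 to 242 FPKM in WT, with overlap. The 4 lower genes, also named after their values were seen, were Sp1, Rorb, Thrb and Prdm1. Their log2 differences were -0.16, -0.14, -0.09 and -0.01, all with overlap.

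Most rod and cone markers had a higher mean in CTGF-/-, without a gene past the adjusted threshold. Of 20 rod markers 18 were higher and 2 lower, with a median log2 difference of 0.30, and 7 were higher at an unadjusted p under 0.05 by limma. Among all genes tested, 44.8% were higher and 3.83% were higher at this p. With equal FPKM totals the rod median was 0.22, and 4 rod markers had an unadjusted p under 0.05. Without WT replicate 2, the lowest library for these genes, the median was 0.18, with 15 higher and 5 lower. The number at an unadjusted p under 0.05 was between 4 (without CTGF-/- replicate 1 or WT replicate 2) and 14 (without WT replicate 3) when 1 library was left out. Cnga1, a subunit of the rod channel, had 14.7, 19.3 and 19.9 FPKM in CTGF-/-, against 10.2, 9.36 and 14.2 FPKM in WT. Tulp1, needed for rhodopsin transport, averaged 102 ± 9.92 FPKM in CTGF-/- and 78.5 ± 2.63 FPKM in WT, and Pde6g, the inhibitory subunit of rod phosphodiesterase, 138 ± 10.4 FPKM in CTGF-/- and 98.7 ± 19.8 FPKM in WT (SD, n = 3 each). Rom1, an outer segment disc protein and the most abundant of the list, was at 417 to 461 FPKM in CTGF-/- and 316 to 410 FPKM in WT. Of 11 tested cone markers 8 were higher and 3 lower, with a median of 0.22 and 4 higher at an unadjusted p under 0.05 (2 without WT replicate 2). With equal FPKM totals the cone median was 0.15, and 3 had an unadjusted p under 0.05. Cnga3, of the cone channel, averaged 3.65 ± 0.29 FPKM in CTGF-/- and 2.59 ± 0.363 FPKM in WT, and Opn1sw, the short-wavelength opsin, 76.5 ± 6.88 FPKM in CTGF-/- and 59.5 ± 8.17 FPKM in WT (SD, n = 3 each). Gngt2, the cone transducin gamma subunit and the most abundant of the list, was at 138 to 200.4 FPKM in CTGF-/- and 113 to 139 FPKM in WT. The 3 lower genes were named after their values were seen. Cngb3, the partner of Cnga3 in the cone channel and more abundant than it, was at 10.8, 7.53 and 9.64 FPKM in CTGF-/-, against 11.1, 11.6 and 11.9 FPKM in WT, without overlap. Arr3, cone arrestin, and Pde6c, the cone phosphodiesterase, had log2 differences of -0.12 and -0.03, with overlap. In bulk retinal RNA, more cells of a type and more RNA per cell cannot be told apart.

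To set Nxnl1 beside the rod markers, log2(FPKM + 1) was averaged over the marker genes of each library and the average of WT was subtracted. The rod level was 0.41, 0.16 and 0.26 in CTGF-/- replicates 1 to 3, against 0.04, -0.27 and 0.23 in WT replicates 1 to 3. Nxnl1 on the same scale was at 0.69, 0.79 and 0.47 in CTGF-/-, against 0.22, -0.23 and 0.01 in WT. The rod level, an average of 20 genes, overlapped between the groups and Nxnl1 did not. Of the single rod markers, 7 of 20 did not overlap with CTGF-/- higher and 0 with CTGF-/- lower, against 7.53% and 10.9% of all genes tested. Cnga1, 1 of these 7, had a log2 difference of 0.64, close to that of Nxnl1. As Nxnl1 was chosen with this contrast known, nothing is read from its lack of overlap. Nxnl1 minus the rod level was 0.28, 0.63 and 0.21 in CTGF-/-, against 0.19, 0.04 and -0.23 in WT, so these values did not overlap between the groups, with CTGF-/- replicate 3 and WT replicate 1 next to each other. Nxnl2 minus the rod level was -0.06, -0.05 and -0.19 in CTGF-/-, against -0.06, 0.02 and 0.03 in WT. How far the rod level enters the Nxnl1 difference was not tested.

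**Figure D4:**
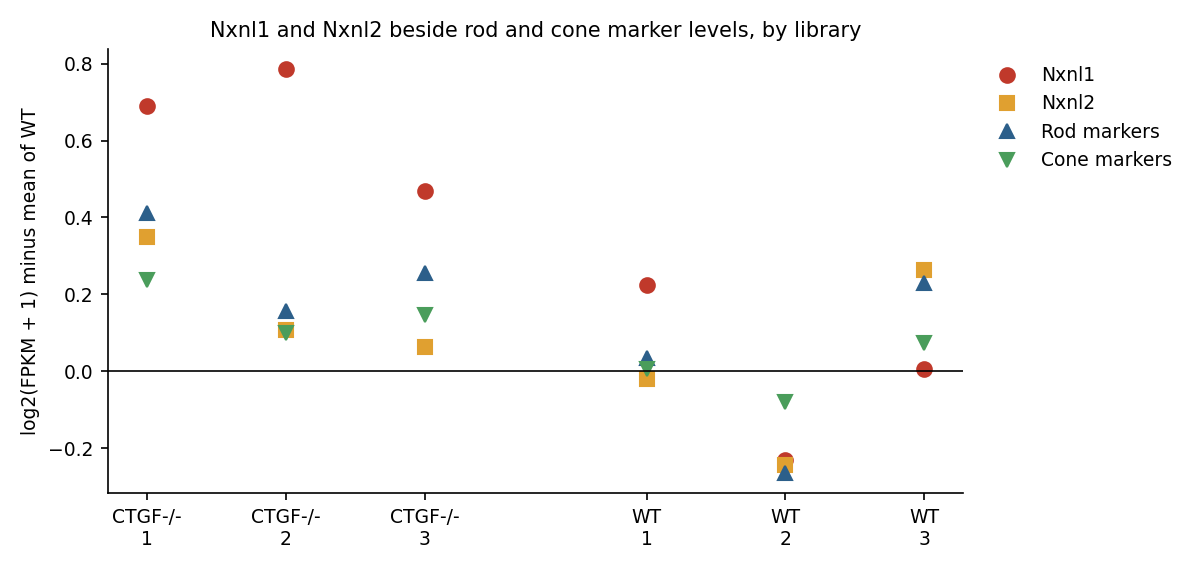
Levels of Nxnl1, Nxnl2, 20 rod markers and 11 cone markers in each library, as log2(FPKM + 1) after subtraction of the WT average. Nxnl1 (0.47 to 0.79 in CTGF-/-) is above the rod level in each CTGF-/- library, while Nxnl2 is at 0.06 to 0.35 there.

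Thioredoxin-system genes, the chemistry to which the full-length NXNL proteins belong, showed no common direction. Of 19 genes 10 were higher and 9 lower in CTGF-/- (4 and 15 with equal FPKM totals), with a median log2 difference of 0.01. None passed the adjusted threshold, and 0 had an unadjusted p under 0.05, against 9.32% of all genes tested. Txnrd1, the cytosolic thioredoxin reductase, was at 10.5, 11.3 and 11.2 FPKM in CTGF-/-, against 12.5, 12.9 and 12.1 FPKM in WT, without overlap. Txnip, the thioredoxin-binding protein that also restrains glucose uptake, averaged 21.3 ± 11.7 FPKM in CTGF-/- and 31.5 ± 8.82 FPKM in WT. Prdx2, the most abundant of the list, averaged 112 ± 5.86 FPKM in CTGF-/- and 105 ± 5.94 FPKM in WT, and Prdx4, an endoplasmic reticulum peroxiredoxin, 16.4 ± 0.334 FPKM in CTGF-/- and 15.2 ± 0.767 FPKM in WT (SD, n = 3 each).

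Genes of glutathione and NADPH supply, from which such enzymes draw reducing power, were split, with 8 of 14 higher and 6 lower, and the median log2 difference of 0.06 was -0.02 with equal FPKM totals and -0.005 without CTGF-/- replicate 3. None passed the adjusted threshold. Against 3.83% of all genes tested, 1 was higher at an unadjusted p under 0.05. This gene, Me1, the cytosolic malic enzyme that yields NADPH, was at 17.2, 17.9 and 17.8 FPKM in CTGF-/-, against 15.1, 15.2 and 15.2 FPKM in WT. Gpx4, a peroxidase of lipid peroxides, averaged 186 ± 7.32 FPKM in CTGF-/- and 163 ± 23.5 FPKM in WT, and Gclc, of glutathione synthesis, 8.55 ± 0.503 FPKM in CTGF-/- and 9.56 ± 0.598 FPKM in WT (SD, n = 3 each).

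Among 13 tested genes for proteins tied to basigin, 9 were higher and 4 lower in CTGF-/- (6 and 7 with equal FPKM totals), with a median log2 difference of 0.07 that was -0.02 without CTGF-/- replicate 3 and 0.14 without WT replicate 3. None passed the adjusted threshold, and 2 were higher and 1 lower at an unadjusted p under 0.05, against 3.83% and 5.49% of all genes tested. Atp1b2, a beta subunit of the sodium pump in photoreceptors and glia, was at 186, 208 and 169 FPKM in CTGF-/-, against 152, 157 and 144 FPKM in WT. Lgals3, a lectin gene of macrophages and glia, was low, at 0.773 ± 0.129 FPKM in CTGF-/- and 0.315 ± 0.024 FPKM in WT. Itgb1, the integrin beta chain, was at 27.8, 26.6 and 28.1 FPKM in CTGF-/-, against 33.6, 32.4 and 34.2 FPKM in WT. The groups did not overlap in these 3 of the 13 genes, nor in 18.5% of all genes tested. The lactate transporters that basigin escorts to the membrane were named after their values were seen, and all overlapped. Slc16a1 was at 3.59 to 4.68 FPKM in CTGF-/- and 3.65 to 6.2 FPKM in WT, and Slc16a3 at 4.22 to 6.48 FPKM in CTGF-/- and 4.04 to 5.42 FPKM in WT.

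Other glucose transporters were far below Slc2a1. Of 5 tested, 1 was higher and 4 lower in CTGF-/-, with a median log2 difference of -0.17, and none passed the adjusted threshold. This median was -0.37 with a pseudocount of 0.1, -0.09 without CTGF-/- replicate 1 and -0.10 without WT replicate 3. Slc2a3, the neuronal transporter and the most abundant of them, was at 3.76, 4.26 and 4.18 FPKM in CTGF-/-, against 4.27, 4.46 and 4.83 FPKM in WT. Slc2a13, an inositol carrier by function, averaged 1.21 ± 0.237 FPKM in CTGF-/- and 1.89 ± 0.0823 FPKM in WT, while Slc2a8, an intracellular transporter, averaged 3.6 ± 0.325 FPKM in CTGF-/- and 2.8 ± 0.0838 FPKM in WT (SD, n = 3 each). Slc2a6 averaged 0.614 ± 0.174 FPKM in CTGF-/- and 0.815 ± 0.164 FPKM in WT. The groups did not overlap for Slc2a8, with CTGF-/- higher, and for Slc2a3 and Slc2a13, with CTGF-/- lower. Over all genes tested, 7.53% were apart with CTGF-/- higher and 10.9% with CTGF-/- lower.

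Glycolysis is the route that the factor is known to feed in cones, and none of its genes passed the adjusted threshold. Of 19 tested genes 14 were higher and 5 lower (11 and 8 with equal FPKM totals), with a median log2 difference of 0.11. At an unadjusted p under 0.05, 1 was higher and 1 lower, against 3.83% and 5.49% of all genes tested. Ldha, the lactate dehydrogenase subunit that favours lactate, was at 313, 378 and 289 FPKM in CTGF-/-, against 284, 248 and 243 FPKM in WT. Pkm, pyruvate kinase, was at 250, 305 and 229 FPKM in CTGF-/-, against 222, 212 and 211 FPKM in WT. Pfkp, a phosphofructokinase, was at 25.2, 27.9 and 22.7 FPKM in CTGF-/-, against 30.1, 31.2 and 28.4 FPKM in WT. CTGF-/- replicate 2 was the highest library for Ldha and Pkm, as it was for Nxnl1, Bsg and Slc2a1 but not for Nxnl2. The glycolysis level (mean log2(FPKM + 1) after subtraction of the WT average) was 0.24 in that library. It was 0.03 and -0.001 in CTGF-/- replicates 1 and 3 and -0.07 to 0.05 in WT. The median log2 difference was 0.03 without CTGF-/- replicate 2, and 0.03 with equal FPKM totals.

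**Figure D5:**
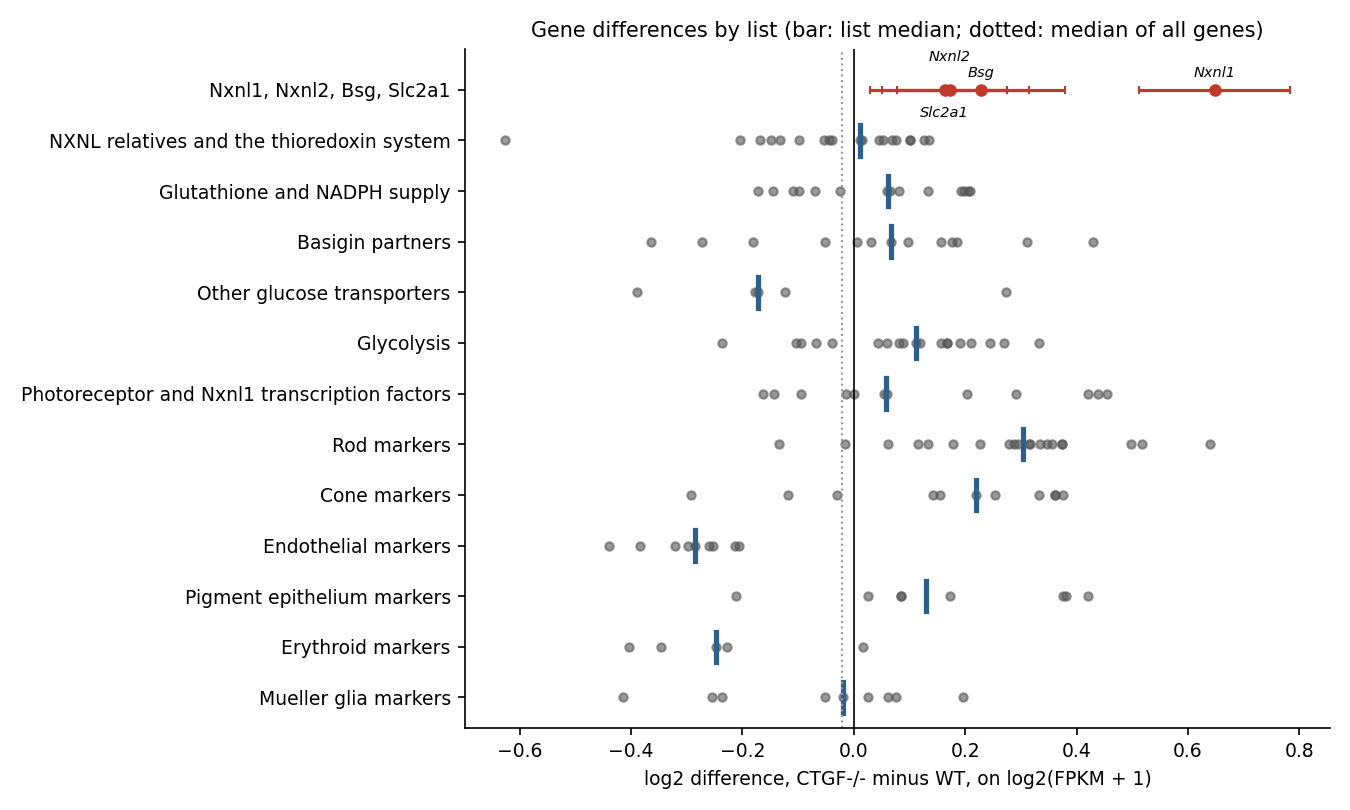
Log2 differences (CTGF-/- minus WT, on log2(FPKM + 1)) of Nxnl1, Nxnl2, Bsg and Slc2a1 with SE, above the genes of 12 lists as points, with blue bars for list medians and a dotted line for the median of all genes (-0.02). Nxnl1 (0.65) lies at the upper end of the rod marker genes, whose median is 0.30.

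Markers of other cells and tissues that could carry Bsg or Slc2a1 varied between libraries, and their part in the values above was not tested. All 9 tested endothelial markers were lower in CTGF-/-, with a median log2 difference of -0.29. Without WT replicate 3 the median was -0.09, with 1 higher and 7 lower among the markers that then passed the filter. The markers had a summed level of at most 14.4 FPKM in CTGF-/- and 26.3 FPKM in WT, reached in WT replicate 3. Cldn5, the most abundant of them, averaged 4.25 ± 1.72 FPKM in CTGF-/- and 6.57 ± 4.15 FPKM in WT, and Flt1, which encodes a receptor for vascular endothelial growth factor, 0.587 ± 0.028 FPKM in CTGF-/- and 0.907 ± 0.2 FPKM in WT (SD, n = 3 each). The 5 erythroid markers summed to 138.5 to 323 FPKM in CTGF-/- and 94.6 to 612 FPKM in WT. The 8 tested pigment epithelium markers summed to 53.3 to 61.1 FPKM in CTGF-/- and 34.3 to 61.7 FPKM in WT, and Rpe65, Best1 and Lrat were not in the table. Of 9 Mueller glia markers 4 were higher and 5 lower, with a summed level of 457 to 488 FPKM in CTGF-/- and 466 to 507 FPKM in WT. Their median log2 difference was -0.02, as for all genes tested. Glul, the glutamine synthetase gene of these glia, was at 65.2 to 77.2 FPKM in CTGF-/- and 79.4 to 87.9 FPKM in WT. It was the only 1 of the 9 without overlap, where 10.9% of all genes tested were apart with CTGF-/- lower. The 4 higher genes, named after their values were seen, were Apoe, Vim, Sox9 and Car2. Their log2 differences were 0.20, 0.08, 0.06 and 0.03. The 13 lens markers summed to 580, 297 and 4949 FPKM in CTGF-/- replicates 1 to 3, against 689, 5.95 and 9.17 FPKM in WT replicates 1 to 3. Of these, 5 genes were listed at 0 in WT replicate 2 or 3. CTGF-/- replicate 3, which held the most lens RNA, was the lowest CTGF-/- library for Nxnl1, Nxnl2 and Slc2a1, while Bsg was lowest in CTGF-/- replicate 1. WT replicate 1, which held the most lens RNA in WT, was the highest WT library for Nxnl1 and the lowest for Bsg. It lay between the other WT libraries for Nxnl2 and Slc2a1. A link between lens RNA and these levels was not tested.

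The genes most like each member were sought among the 11935 genes with a mean of at least 1 FPKM, by the Pearson correlation of log2(FPKM + 1) over the 6 libraries, which all share the depth and makeup of a library. For Nxnl1 these were Nsmce4a (0.987), Unc119 (0.987), Bcar3 (0.983) and Cisd3 (0.982). Unc119, which encodes a lipid-binding transport protein of photoreceptors, was at 157, 169 and 141 FPKM in CTGF-/-, against 132, 116 and 125 FPKM in WT. For Nxnl2 they were Borcs8, Rhbdd3, Stx3 and Rbm7 (0.997, 0.990, 0.984 and 0.978), and for Slc2a1 they were Gdf1, Tead3, Wbp4 and Tmem214 (0.991 to 0.993). For Bsg they were Fbxl16, Ints1, Jpt1 and Strn4 (0.997 to 0.998), and Fbxl16 shows the shared shape, at 31.3, 43.8 and 32.0 FPKM in CTGF-/-, against 28.5, 30.9 and 31.2 FPKM in WT. No member was among the 4 nearest genes of another, and the members correlated with each other at 0.12 (Nxnl2 with Bsg) to 0.73 (Bsg with Slc2a1). With 11935 genes compared over 6 libraries, this absence does not show whether the members vary together.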

How the data were processed

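Polyadenylated retinal RNA was made into 6 strand-specific libraries, per the labels' protocols. Per the submitters' processing notes, FastQC, cutadapt, HISAT2 and StringTie were used on GRCm38, and the series' design text adds Ballgown. Tool versions were not given. The authors deposited FPKM per gene and transcript, with a log2 fold change, a linear fold change and p-value and q-value columns, per the file headers. The deposited columns of group means hold mean log2(FPKM + 1). In every deposited gene at least 1 group averaged 0.5 FPKM or more.

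Because FPKM are not counts, limma 3.58.1 (R 4.3.3; lmFit, eBayes with trend) was fitted on log2(FPKM + 1), with Benjamini-Hochberg adjustment and a threshold of 0.05, over 12915 genes and 25082 transcripts with a mean of at least 0.5 FPKM. The fit was tested on simulated data. Members, 6 pathway lists and 7 marker lists were chosen with earlier results of these data known. Genes named in the text were the members, the 3 genes of smallest p and the most abundant gene of each list (of which the text names a part), and the 4 genes nearest in pattern to each member. Some others came from the authors' deposited lists or, where marked, were named after their values were seen. Exons, transcripts and overlaps come from GENCODE M21 and promoters from RefSeq, which matched 3 of the 4 members. Alternatives were another pseudocount, other filters, equal FPKM totals, no moderation, a replicate block and leaving out each library.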

Additional observations from a re-analysis of the deposited data

How the results depend on the processing

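The log2 differences of Nxnl1, Nxnl2, Bsg and Slc2a1 kept their sign under a pseudocount of 0.1, equal FPKM totals and each omission of 1 library. They moved by less than the spread between replicates, but for Bsg this spread includes CTGF-/- replicate 2, the library that stood alone. Without that library the Bsg difference was 0.05 in place of 0.23. The replicate block could not change the 4 differences, as each replicate number occurs once in each group. With equal FPKM totals they were 0.57, 0.09, 0.15 and 0.08, as the median of all genes went to -0.09 with that scaling, against -0.02 without it. Bsg-205 then stood at -0.016 in place of 0.07. Leaving out 1 library put Bsg-203 between -0.13 (without WT replicate 2) and 0.90 in place of 0.47, and the Bsg-205 share difference between -6.73 and 0.98 percentage points (without CTGF-/- replicate 2) in place of -3.3. The cause of these 3 changes of sign was not tested.

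The 6 genes past the adjusted threshold became 1 without moderation, and 2 to 9 when 1 library was left out (2 when each WT library in turn was the one left out). The 6 transcripts became 2 without moderation and 1 to 10 when 1 library was left out (10 without CTGF-/- replicate 1, 3 without CTGF-/- replicate 2 or WT replicate 3, and 1 without WT replicate 1). With the replicate block 2 genes and 0 transcripts passed, and 1093 transcripts had an unadjusted p under 0.05 by limma. Deviations of same-numbered libraries correlated at 0.01, 0.17 and -0.16, and those of differently numbered libraries at -0.305 to 0.371. As deviations within a group cancel out, these values cannot show whether same-numbered libraries were processed together. The medians of 6 of the 13 lists moved by more than the spread between replicates in at least 1 alternative (the 5 pathway lists other than glycolysis, and Mueller glia markers). This spread is each list's own, 0.018 for Mueller glia markers and 0.913 for erythroid markers, so a list outside the 6 need not be stable. The erythroid median, -0.25 with all libraries, was 0.45 without WT replicate 3. There 4 erythroid markers were higher and 0 lower, in place of 1 and 4. Unknown depth limits what the low transcripts, Nxnl1-201 and Slc2a1-205, can show.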
